A study of Mus musculus with 11 samples.

Results

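The nuclei described here are those that the deposited annotation names neurons and places in cluster 0. They numbered 31326 of 110304 nuclei, or 28.4%, and were drawn from 76211 nuclei named neurons in all clusters. Nuclear RNA was read by droplet single-nucleus sequencing in 11 libraries, each from the brain of 1 mouse carrying, by its label, 2 copies of a knocked-in human transferrin receptor (hTfR KI HOM). The transferrin receptor carries iron-bound transferrin into cells and across the vessel wall of the brain. The mice received 4 weekly intravenous doses in saline and were sampled 72 h after the final one. ATV:BACE1, a receptor-binding molecule that carries no oligonucleotide, was the control (n = 3), given at 57 mg/kg by its label, though the series description can be taken to mean 60 mg/kg for it too. OTV:Malat1, an antisense oligonucleotide (ASO) against Malat1 on a receptor-binding molecule, was given at 60 mg/kg (n = 3). NonTV:Malat1, titled RSV-ASO, was the matching conjugate without receptor binding (60 mg/kg, n = 3). Malat1 ASO was the oligonucleotide alone (2.5 mg/kg, n = 2).

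Mice numbered 1 were females aged 2.33 months, those numbered 4 were males aged 2.57 months, and those numbered 5 were males aged 2.33 months. Replicates 1, 4 and 5 also carry batch numbers 1, 3 and 4, so neither sex nor age can be told apart from batch. The Malat1 ASO group had replicates 1 and 5 here. The labels give the brain region as posterior, whereas the deposited metadata give cortex and the strain C57BL/6J without the knock-in. Library and mouse are the same unit in these data, so p-values rest on single mice. Fits with the replicate number as a block measure the spread between mice that remains after differences shared by mice of the same number. The class held 1858 to 4860 nuclei and 12201258 to 17051264 unique molecular identifiers (UMIs, counts of captured RNA molecules) in each library. The median nucleus had 4400.5 UMIs, with library medians from 2851 in OTV:Malat1 replicate 5 to 5838.5 in OTV:Malat1 replicate 4. A deposited call marked 11.7% of the nuclei as doublets, and these were kept. Within each replicate number ATV:BACE1 had the highest share of called doublets, at 11.06%, 13.23% and 20.01% in replicates 1, 4 and 5. The highest share among the other groups was 9.27%, 9.60% and 15.19%. The median UMIs of ATV:BACE1 were the lowest within replicates 1 and 4, but not within replicate 5. Numbers of genes called without doublets are given below. The part of the depth difference in these calls was not tested. Across all libraries, 1495 of 108788 barcodes occurred in more than 1 library.

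Malat1 is a long non-coding RNA that stays in the nucleus, where it gathers at splicing speckles, and it is among the most abundant transcripts of neurons. A gapmer ASO pairs with such a transcript and recruits RNase H1, an enzyme that cuts RNA in a hybrid with DNA and works in the nucleus. Excitatory neurons of the cortex release glutamate, and Slc17a7 (VGLUT1) loads it into vesicles. Inhibitory neurons make GABA with the enzymes encoded by Gad1 and Gad2. Neuronal firing turns on immediate-early genes such as Fos, Egr1, Junb and Arc, followed by later effectors such as Homer1 and Bdnf.

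By these markers the class was excitatory cortical neuron-like. Levels are given in CPM, UMIs of a gene scaled to a common library total, over all libraries, first for the class and then for all other nuclei named neurons. The vesicular glutamate transporter Slc17a7 was at 156 against 38.8 CPM. The kinase subunit Camk2a was at 639 against 370 CPM. Neurod6, a transcription factor of excitatory forebrain neurons, was at 46.2 against 9.90 CPM. Slc17a6, the transporter typical of subcortical glutamate neurons, was lower here, at 18.5 against 36.7 CPM. Gad1 was at 20.2 against 103 CPM and Gad2 at 24.3 against 132 CPM. Since the clusters were made from the same RNA, these levels describe the class and were not tested.

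**Figure D1:**
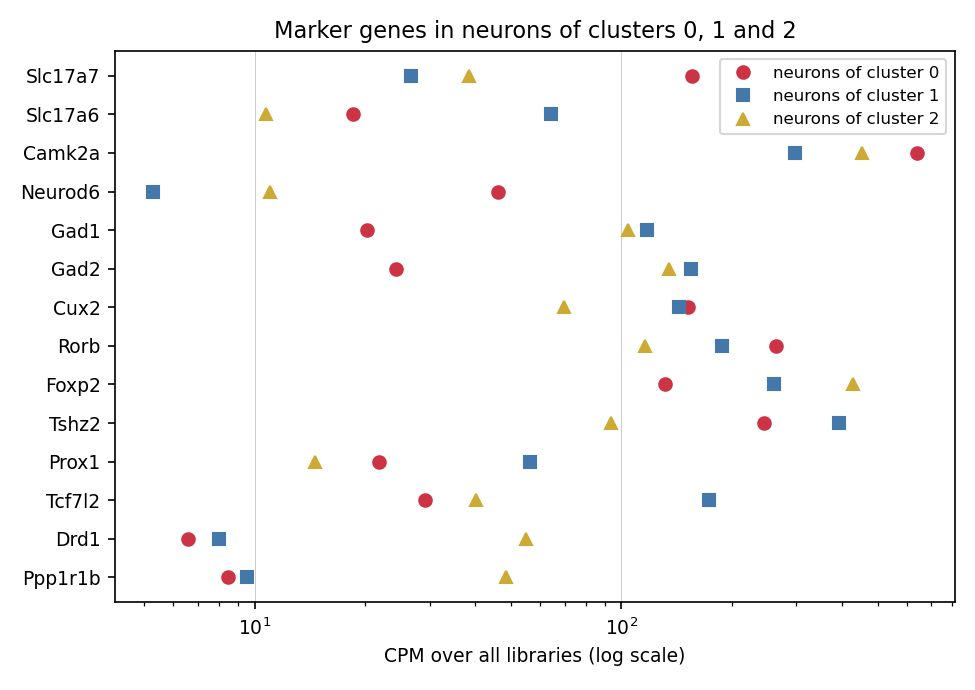
Marker genes (rows) in neurons of clusters 0, 1 and 2, as CPM over all libraries on a log axis. Slc17a7 and Neurod6 lie highest in cluster 0, Gad1 and Gad2 lie lowest there (20.2 and 24.3 CPM), and Drd1 lies highest in cluster 2.

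The same was seen nucleus by nucleus after each nucleus was randomly reduced to 1000 UMIs. At least 1 Slc17a7 UMI remained in 15.0% of nuclei of the class, against 2.82% of neurons of cluster 1, 2.92% of neurons of cluster 2 and 4.41% of oligodendrocytes of cluster 3, which should lack it. Before thinning these shares were 50.8%, 8.68%, 15.0% and 5.47%, at median depths of 4400, 3115, 4472 and 910 UMIs. Camk2a was found in 45.3% of thinned nuclei of the class, 24.4% of neurons of cluster 1, 35.4% of neurons of cluster 2 and 6.70% of oligodendrocytes. Gad1 was found in 1.81% of thinned nuclei and Gad2 in 2.00%, both below the oligodendrocyte shares of 3.03% and 4.03%. Slc17a6 was found in 1.67%, against 1.44% of oligodendrocytes. The choroid plexus gene Ttr was found in 30.4% of thinned nuclei of the class but 71.2% of oligodendrocytes, so background may differ. The oligodendrocyte shares therefore cannot say whether Gad1, Gad2 and Slc17a6 were at background in the class. At least 2 UMIs of Gad1 and Gad2 together were present in 1355 nuclei (4.33%), or 2.75% once called doublets were left out.

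Markers of several cortical layers were present, mostly not at their highest in this class. The 3 layer 4 markers, among them Rorb at 264 CPM, summed to 278.9 CPM in the class, 194.6 CPM in cluster 1 and 121.8 CPM in cluster 2. The 4 layer 2/3 markers, among them Cux2 at 152 CPM, summed to 323.7 CPM against 361.8 CPM in cluster 1. The 5 layer 5 markers summed to 230 CPM and the 6 layer 6 markers, among them Foxp2, to 313.6 CPM, against 472.6 and 816 CPM in cluster 2. Members of these lists went both ways. Bcl11b (106 against 377.4 CPM), Deptor, Foxp2 (131.5 against 429.5 CPM), Tle4 and Syt6 were lower in the class than in cluster 2. Fezf2 (7.90 against 2.06 CPM), Etv1, Parm1, Rprm (7.39 against 4.89 CPM), Nxph4 and Cplx3 were higher. Cluster 2 also held striatal neuron RNA, with 4 striatal markers summing to 799 CPM against 40.4 CPM in the class. The near-projecting and retrosplenial pair, Tshz2 and Slc17a8, summed to 245.8 CPM against 395.6 CPM in cluster 1. Of these 5 layer sums, that of layer 4 alone was highest in the class. Markers of some other neurons were low: the striatal dopamine receptor Drd1 was at 6.59 CPM against 55.0 CPM in cluster 2, and the thalamic factor Tcf7l2 at 29.1 CPM against 174 CPM in cluster 1. Gabra6, a receptor subunit of cerebellar granule cells, was at 0.0675 CPM. The 4 hippocampal CA markers were higher in the class, summing to 95.9 CPM against 60.2 CPM in cluster 1 and 50.2 CPM in cluster 2. Most of that sum in the class was Mpped1, at 81.7 CPM. RNA of non-neuronal cells was also present, with 5 oligodendrocyte markers summing to 485.5 CPM and the choroid plexus gene Ttr at 311 CPM. No gene of any marker list was at 0. Malat1 itself headed the transcriptome at 73250 CPM, followed by the adhesion phosphatase Ptprd at 9447 CPM and the potassium channel partner Kcnip4 at 8303 CPM. Among genes of at least 50 CPM, those with a high ratio to other neurons included the ubiquitin ligase gene Pdzrn3 (4.78), Arhgap15 (4.25), which acts on Rac signalling, Slc17a7 (4.01) and the integrin gene Itga8 (3.78).

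The share of each library's nuclei that fell in the class overlapped between groups. Replicates 1, 4 and 5 of ATV:BACE1 had 27.7%, 30.5% and 33.2% of their nuclei in it (mean 30.5% ± 2.74 SD, n = 3). Those of OTV:Malat1 had 25.4%, 24.6% and 35.1% (mean 28.4% ± 5.86 SD, n = 3). These means differed by -2.11 percentage points, OTV:Malat1 minus control (exact two-sided permutation p = 0.6, n = 3 against 3). NonTV:Malat1 averaged 25.7% ± 4.94 (SD, n = 3) and Malat1 ASO 27.3% ± 4.94 (SD, n = 2), and the libraries of each group overlapped those of the control. Within same-numbered pairs, however, nonTV:Malat1 was below the control in 3 of 3 and Malat1 ASO in 2 of 2, and OTV:Malat1 in 2 of 3. As a share of nuclei named neurons, the control had 41.5%, 43.6% and 44.1%, OTV:Malat1 40.1%, 38.1% and 43.4%, nonTV:Malat1 33.5%, 40.1% and 42.0% and Malat1 ASO 38.2% and 42.9%, each below its same-numbered control. A test with the pairing was not run.

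Malat1 RNA fell in these neurons under the receptor-binding conjugate in each of 3 same-numbered pairs of mice, and no fall was detected under the 2 forms of the ASO without receptor binding. Malat1 is transcribed from the minus strand of chromosome 19, chr19:5795690-5802672 (mm10), a long intergenic non-coding gene. It overlaps the annotated Gm27694 and, on the other strand, Gm37376. Control libraries (ATV:BACE1 replicates 1, 4 and 5) gave 7.97%, 7.65% and 8.81% of their UMIs to Malat1, on average 8.14% ± 0.599 (SD, n = 3). The OTV:Malat1 libraries gave 5.30%, 4.03% and 5.08%, on average 4.81% ± 0.679 (SD, n = 3), or 59.1% of the control level. All 3 OTV:Malat1 libraries lay below all 8 others.

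The nonTV:Malat1 libraries gave 7.85%, 8.09% and 9.02%, on average 8.32% ± 0.618 (SD, n = 3) or 102% of the control. The Malat1 ASO libraries gave 8.18% and 8.71%, on average 8.44% ± 0.376 (SD, n = 2) or 104% of the control. Both groups overlapped the control. The exact two-sided permutation test of the Malat1 share gave p = 0.1 for OTV:Malat1, the smallest value 3 against 3 libraries allow, and p = 0.6 for each of the other groups.

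**Figure D2:**
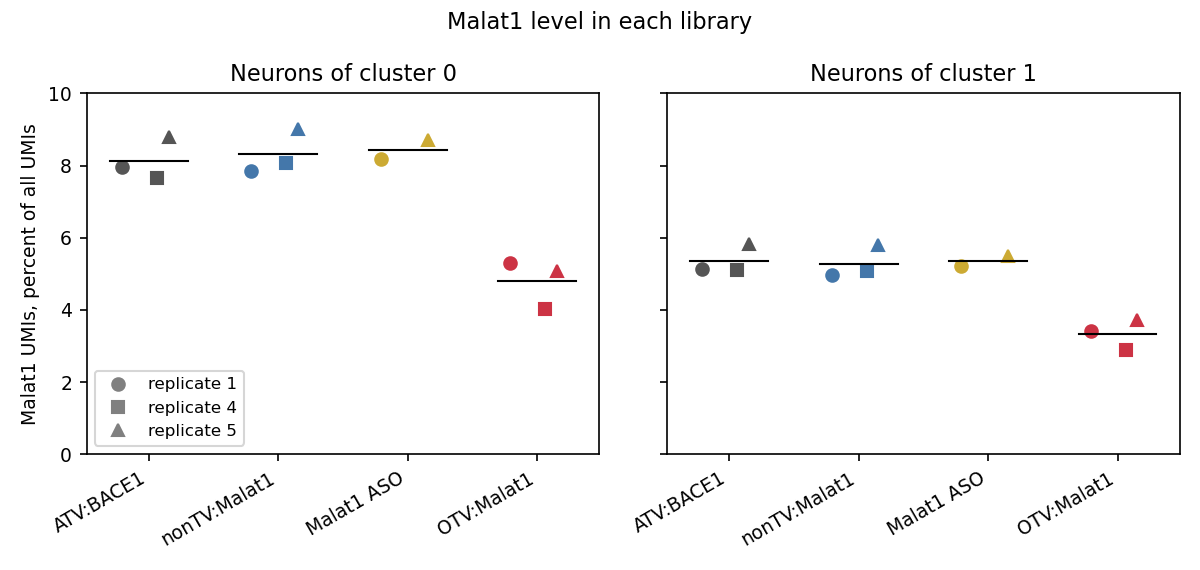
Malat1 as a percent of all UMIs (vertical axis) in each library of the 4 groups, for neurons of cluster 0 (left) and of cluster 1 (right). Symbols are libraries and lines are group means; the 3 OTV:Malat1 libraries of cluster 0 lie between 4.03% and 5.30%, below the other 8.

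In edgeR's quasi-likelihood test on UMIs summed by library, with the replicate number as a block, Malat1 fell by 0.81 on the log2 scale in OTV:Malat1 against ATV:BACE1 (SE 0.081, 95% interval -0.98 to -0.64, adjusted p = 0.00124). Pair by pair, which is also batch by batch, the log2 ratios were -0.57, -1.02 and -0.85 for the mice numbered 1, 4 and 5. The change was 0.041 for nonTV:Malat1 (95% interval -0.13 to 0.21, adjusted p = 1.00) and 0.027 for Malat1 ASO (95% interval -0.17 to 0.23, adjusted p = 0.951). These intervals bound a fall of Malat1 at 0.13 and 0.17 on the log2 scale. Set directly against nonTV:Malat1, the conjugate that does not bind the receptor, OTV:Malat1 was lower by 0.85 on the log2 scale (log2 change -0.85, adjusted p = 0.000665). Against Malat1 ASO the log2 change was -0.84 (adjusted p = 0.00376). Without the replicate block the Malat1 change against the control had the same size (-0.81), but its edgeR adjusted p was 1.00 over all genes, as it was for the 2 other contrasts of OTV:Malat1. Without OTV:Malat1 replicate 4 the change against ATV:BACE1 was -0.71 with an adjusted p of 0.0979. The changes against nonTV:Malat1 and Malat1 ASO were then -0.75 and -0.77, with adjusted p = 0.0546 and 0.0583. The change against nonTV:Malat1 also did not pass without nonTV:Malat1 replicate 1 (adjusted p = 0.0654). The change against Malat1 ASO did not pass without any 1 of 4 further libraries, which were nonTV:Malat1 replicate 1, OTV:Malat1 replicate 5 and both of Malat1 ASO (adjusted p up to 0.199).

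Malat1 was the single gene called in OTV:Malat1 against ATV:BACE1 among 18492 tested (0.00541%), at an adjusted p under 0.05, while 829 genes had an unadjusted p under 0.05. DESeq2 called 5 genes in this contrast, and edgeR without the filter on low counts called 7. The count was 0 without OTV:Malat1 replicate 4 and 6 without ATV:BACE1 replicate 4. No gene was called in nonTV:Malat1 against ATV:BACE1 by edgeR (0%), with 688 genes at an unadjusted p under 0.05 and 5 genes called by DESeq2. Malat1 alone was called when OTV:Malat1 was set against nonTV:Malat1 (0.00541%) or against Malat1 ASO (0.00541%), with 576 and 881 genes at an unadjusted p under 0.05.

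The fall was spread over the nuclei rather than carried by a few. With each nucleus thinned to 1000 UMIs, control medians were 78, 75 and 86 Malat1 UMIs for the mice numbered 1, 4 and 5. The OTV:Malat1 medians were 52, 39 and 49, those of nonTV:Malat1 75, 80 and 88, and those of Malat1 ASO 81 and 85. The OTV:Malat1 level was 0.366 of the control at the 5th percentile of nuclei, 0.510 at the 25th, 0.586 at the median, 0.636 at the 75th and 0.696 at the 95th. Each of these 5 percentiles was lower, with the smallest ratio at the lowest percentile. Sampling noise of thinned counts is relatively larger at lower counts, and its part in the order of these ratios was not tested.

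A nucleus was called low when it held no more than 44.667 thinned Malat1 UMIs, the mean 5th percentile of the control libraries. Low nuclei made up 35.9%, 63.2% and 42.3% of OTV:Malat1 replicates 1, 4 and 5 (mean 47.1% ± 14.3 SD, n = 3). They made up 5.87%, 6.33% and 3.61% of the control replicates (mean 5.27% ± 1.45 SD, n = 3). The difference was 41.9 percentage points (exact two-sided permutation p = 0.1, the smallest possible). NonTV:Malat1 held 5.85% ± 1.84 (SD, n = 3) and Malat1 ASO 5.87% ± 0.621 (SD, n = 2). Nuclei with at most 10 thinned Malat1 UMIs made up 1.12%, 3.51% and 1.60% of the OTV:Malat1 libraries. None was found in ATV:BACE1 or nonTV:Malat1, and Malat1 ASO replicate 5 held 0.0315%. Nuclei under 1000 UMIs were left out here, which removed 1.29% of the OTV:Malat1 nuclei, 0.573% of the control, 0.379% with nonTV:Malat1 and 0.372% with Malat1 ASO.

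**Figure D3:**
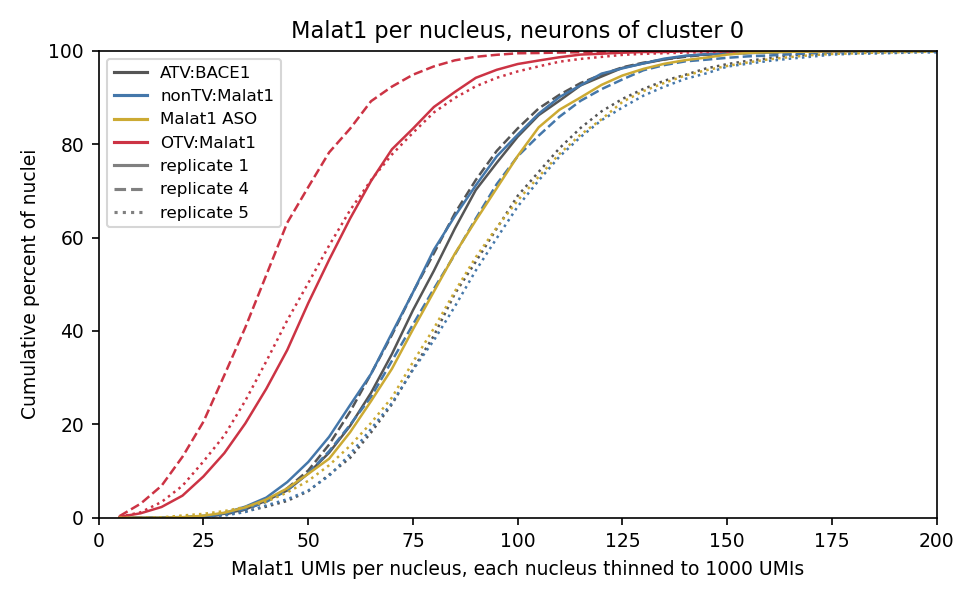
Cumulative percent of nuclei (vertical axis) against Malat1 UMIs in a nucleus thinned to 1000 UMIs (horizontal axis), 1 line for each library. The 3 OTV:Malat1 lines lie to the left along their whole length, with medians of 52, 39 and 49 UMIs, and the other 8 lines run close together.

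The contrast was as large in shallow as in deep nuclei. The Malat1 share under OTV:Malat1 was 56.0% of the control in nuclei under 2000 UMIs, 60.2% in nuclei of 2000 to 5000 UMIs and 58.2% in nuclei of 5000 UMIs and over. OTV:Malat1 replicates 4 and 5 had the highest and the lowest median depth of the 11 libraries, and both were low in Malat1.

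The fall was found in each of the 7 marker strata that could be tested with the replicate block. Nuclei were sorted into strata by the marker list with the most UMIs in the nucleus, with at least 2 UMIs and no tie, and 8035 nuclei had no such list. A stratum is therefore a set of nuclei picked by a few genes, not an annotated cell type. All strata come from the same mice, so results in several strata are not independent repeats. Set against the control, Malat1 under OTV:Malat1 changed on the log2 scale by -0.74 in the layer 2/3 stratum (5919 nuclei), -1.01 in layer 4 (4898 nuclei), -0.82 in layer 5 (2832 nuclei) and -0.72 in layer 6 (5348 nuclei). It was -0.89 in the near-projecting and retrosplenial stratum (3098 nuclei), -0.77 in the hippocampal CA stratum (574 nuclei) and -0.83 in the thalamus and midbrain stratum (412 nuclei). Malat1 passed edgeR's test in 7 of 7 strata, but without the replicate block not in layer 2/3 (adjusted p = 0.0642) or layer 6 (adjusted p = 0.449). The thalamus and midbrain stratum had a median of 9282 UMIs, against 4400.5 in the class. The share of genes called in that contrast was 0.028%, 0.022%, 0.0241%, 0.0437%, 0.0159%, 0.0167% and 0.0407% in the strata as listed. The changes in nonTV:Malat1 and Malat1 ASO lay between -0.02 and 0.13, and none was called. Dentate gyrus (202 nuclei) and cerebellar (8 nuclei) strata were too small to test.

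The layer 4 stratum had the log2 change farthest from 0 of the 7 tested. Its control libraries gave 8.17%, 7.64% and 8.66% of UMIs to Malat1, and its OTV:Malat1 libraries 4.77%, 3.39% and 4.41%, in replicates 1, 4 and 5. The median control nucleus of this stratum held 80 thinned Malat1 UMIs and the median OTV:Malat1 nucleus 39.5, with 61.3% ± 16.9 of OTV:Malat1 nuclei low against 2.16% ± 0.197 of control nuclei (SD, n = 3). In layer 2/3 the low share was 35.4% under OTV:Malat1 against 2.19% under ATV:BACE1. It was highest in the near-projecting and retrosplenial stratum (67.8% against 19.0%), followed by the thalamus and midbrain stratum (66.7% against 11.8%), both with more low nuclei in the control. Against the other nuclei of the class, the layer 4 change differed by -0.26 on the log2 scale (limma, 95% interval -0.47 to -0.044, adjusted p = 0.169 over the 7 strata), so the lower level did not pass. No other stratum differed from the rest past the threshold either, with differences from -0.090 to 0.096.

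**Figure D4:**
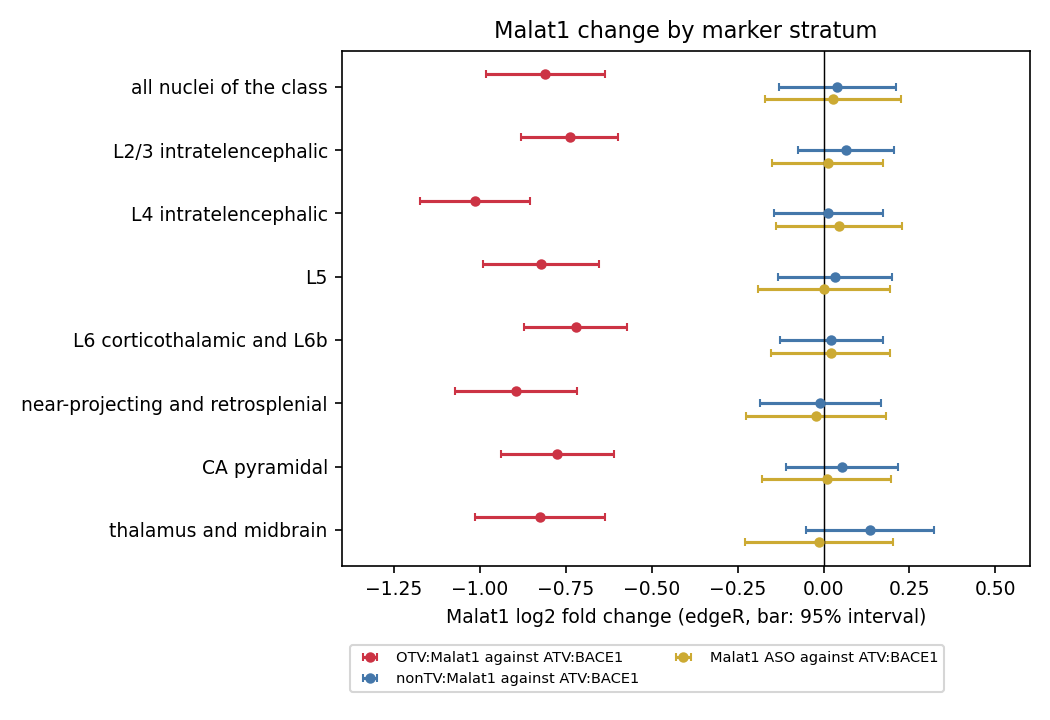
Log2 fold change of Malat1 (horizontal axis) with 95% intervals, for all nuclei of the class and 7 marker strata (rows), each dosing group against ATV:BACE1. The OTV:Malat1 points lie between -1.01 and -0.72 with intervals below 0, and the intervals of the other 2 groups span 0.

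Neurons of cluster 1, which held more Gad1 and Gad2, also lost Malat1. Their Malat1 share was 5.14%, 5.11% and 5.83% in ATV:BACE1 and 3.42%, 2.90% and 3.71% in OTV:Malat1, a log2 change of -0.72 in edgeR's test (adjusted p = 0.0139). The change in cluster 0 minus that in cluster 1 was -0.097 (limma on differences by library, SE 0.075, 95% interval -0.28 to 0.081, adjusted p = 1.00). None of 16872 genes passed limma's test of this difference (0%), with 763 genes at an unadjusted p under 0.05. In neurons of cluster 2 the Malat1 share was 8.41%, 8.53% and 9.46% in ATV:BACE1 and 7.19%, 6.04% and 7.06% in OTV:Malat1, groups that did not overlap, with a log2 change of -0.39 that did not pass (edgeR, adjusted p = 0.238). In oligodendrocytes of cluster 3 the log2 change was -3.26 (edgeR, adjusted p = 3.83e-22). These differences from the class were not tested.

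Genes other than Malat1 passed the test in 1 contrast. In Malat1 ASO against ATV:BACE1, 41 genes were called by edgeR, 34 higher and 7 lower (0.222% of those tested), while Malat1 itself changed by 0.027. This comparison rests on 2 mice against 3, and no Malat1 ASO replicate 4 was analysed here. Of the 41 genes, 17 had groups that did not overlap in CPM (13.5% of all genes tested had none). Without the replicate block edgeR called 0 genes here, and with it DESeq2 called 72, of which 37 were among the 41. The number of genes called moved widely when single libraries were left out. It was 1 without Malat1 ASO replicate 5, 3 without Malat1 ASO replicate 1, 6 without nonTV:Malat1 replicate 4 and 7 without ATV:BACE1 replicate 1. It was 17 without replicate 5 of ATV:BACE1 or of nonTV:Malat1, 27 without nonTV:Malat1 replicate 1 or OTV:Malat1 replicate 4, and 69 without OTV:Malat1 replicate 1. All comparisons with ATV:BACE1 share the same 3 control mice, so values of the other groups are given beside the genes described in full.

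Of 13 listed late activity genes, 2 were called higher in Malat1 ASO and none lower, against 0.222% of all genes called. This list and those below were chosen with earlier results of these data known, so such shares do not test the lists. Of the 13, 7 had a log2 change above 0 and 6 below, with a median of 0.020 against -0.0063 over all genes. The 2 were Homer1 and Pcsk1. Without Malat1 ASO replicate 5 neither was called, and without Malat1 ASO replicate 1 only Homer1 was. Homer1 (chr13:93299635-93405129, mm10, plus strand) encodes a scaffold of the postsynaptic density whose short form is made after neuronal activity, and the gene counts do not separate its forms. Control libraries had 396, 251 and 232 CPM of it for the mice numbered 1, 4 and 5, and Malat1 ASO libraries had 714 and 420 CPM for those numbered 1 and 5. It was at 555, 429 and 259 CPM in nonTV:Malat1 and at 663, 364 and 293 CPM in OTV:Malat1. Both Malat1 ASO libraries lay above the 3 control libraries, and within each replicate number the control was the lowest. The log2 change in Malat1 ASO was 0.90 (SE 0.11, adjusted p = 0.00911). The change of Homer1 in OTV:Malat1 was 0.54 (adjusted p = 0.300) and did not pass. Pcsk1, a protease that matures neuropeptides, was at 51.5, 29.4 and 33.8 CPM in ATV:BACE1 and at 79.8 and 59.1 CPM in Malat1 ASO (log2 change 0.82, adjusted p = 0.0127). It was at 55.6, 47.5 and 36.4 CPM in nonTV:Malat1 and at 67.9, 50.4 and 40.9 CPM in OTV:Malat1, so within each replicate number the control was again the lowest.

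Tiparp, an ADP-ribosyltransferase, was at 25.3, 11.6 and 17.9 CPM in ATV:BACE1 and at 50.8 and 33.5 CPM in Malat1 ASO (log2 change 1.09, adjusted p = 0.0197). Tiparp was at 47.1, 27.2 and 21.8 CPM in nonTV:Malat1 and at 44.5, 27.6 and 20.4 CPM in OTV:Malat1, above the same-numbered control in each pair. Among genes of no list, Spred2, an inhibitor of Ras signalling to ERK, also rose by 0.64, and the kinase gene Sik2 rose by 0.72. Gm47423 (chr13:58824218-58826994, minus strand) lies antisense within Ntrk2, the gene of the BDNF receptor, and rose by 0.78. It was at 105, 73.0 and 91.7 CPM in ATV:BACE1 and at 164 and 158 CPM in Malat1 ASO. NonTV:Malat1 had 138, 129 and 118 CPM of Gm47423 and OTV:Malat1 134, 113 and 127 CPM, so all 8 libraries of the ASO groups lay above the 3 control libraries. The changes of Gm47423 in these groups were 0.53 and 0.48 and did not pass (edgeR, adjusted p = 0.120 and 0.210). No source used here says that counting kept strand, so its reads and those of Ntrk2 may not be separable. The same limit holds for 1700016P03Rik (chr11:75172560-75177633), which overlaps Ovca2 on the other strand and rose by 1.03. On its own strand it spans the genes of Mir212 and Mir132. Frmd6, Synj2 and Mast3 rose by 0.55, 0.58 and 0.46.

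Of 13 listed corticosteroid-responsive genes, 2 rose in Malat1 ASO and none fell (0.222% of all genes were called), with a median log2 change of 0.13 against -0.0063 over all genes tested. Fkbp5, a co-chaperone of the glucocorticoid receptor, was at 27.1, 28.2 and 24.1 CPM in ATV:BACE1 and at 42.8 and 46.4 CPM in Malat1 ASO. NonTV:Malat1 had 29.7, 31.6 and 25.6 CPM of it and OTV:Malat1 36.3, 29.5 and 27.9 CPM. The 2 Malat1 ASO libraries were thus above the other 9 (log2 change 0.79, adjusted p = 0.0127). Per1, a clock gene that also answers corticosteroids, rose by 0.53 (adjusted p = 0.0495). It was the only one of 18 clock genes called in Malat1 ASO by edgeR, and none was called when any 1 library other than OTV:Malat1 replicate 1 was left out. The receptor genes Nr3c2 and Nr3c1, with the highest CPM of the corticosteroid list, were not called. The number of corticosteroid genes called was 3 when OTV:Malat1 lost replicate 1. It was 0 when the control lost replicate 1 or 5, when nonTV:Malat1 lost replicate 4 or when Malat1 ASO lost replicate 5, and 1 when any other single library was left out.

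The genes that fell in Malat1 ASO were B230217C12Rik (-0.73), Dact2 (-0.74), Tob1 (-0.80), Diras2 (-0.61) and the immediate-early genes Egr1, Junb and Jun, all as log2 changes. Dact2 acts in Wnt signalling, Tob1 is an antiproliferative factor and Diras2 is a small GTPase. Junb, a subunit of the AP-1 transcription factor, reached 74.4, 9.54 and 63.4 CPM in the control mice numbered 1, 4 and 5, and 24.7 and 28.0 CPM in Malat1 ASO. It was at 31.0, 10.8 and 28.2 CPM in nonTV:Malat1 and at 32.0, 8.94 and 23.0 CPM in OTV:Malat1. Replicate 4 was low in each of the 3 groups that had one, and in replicates 1 and 5 the control was the highest. The log2 change of Junb in Malat1 ASO was -1.20 (SE 0.22, adjusted p = 0.0450). Egr1, a zinc finger factor, was at 64.7, 15.5 and 53.0 CPM in ATV:BACE1 and at 22.7 and 25.9 CPM in Malat1 ASO (log2 change -1.11, adjusted p = 0.0405). It was at 32.9, 14.3 and 29.8 CPM in nonTV:Malat1 and at 34.1, 15.3 and 22.2 CPM in OTV:Malat1. Jun fell by 0.64 (adjusted p = 0.0499).

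**Figure D5:**
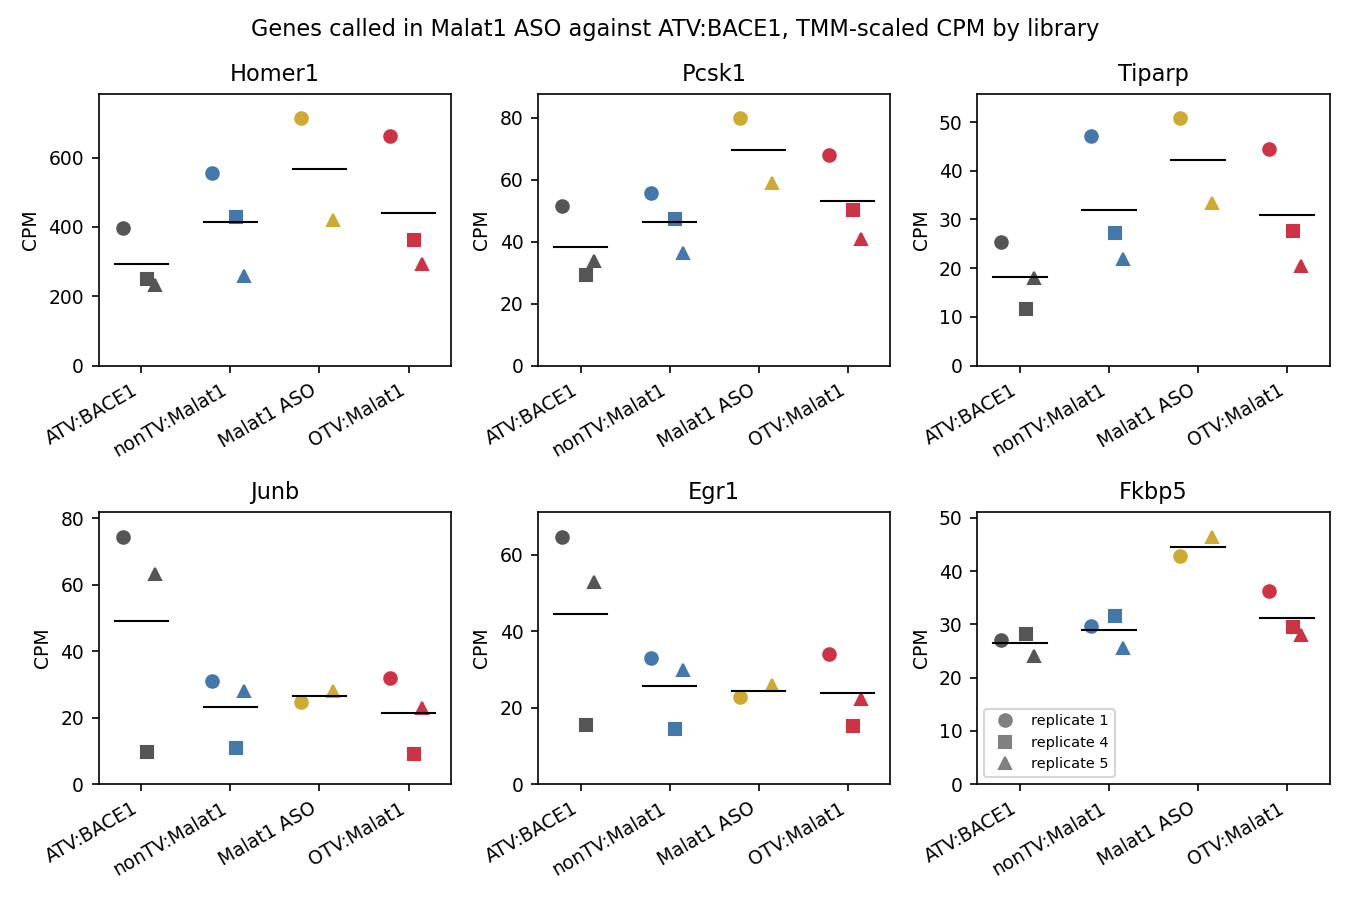
TMM-scaled CPM (vertical axes) of 6 genes called in Malat1 ASO against ATV:BACE1, with 1 symbol for each library and a line for each group mean. Junb and Egr1 are high in ATV:BACE1 replicates 1 and 5 and low in replicate 4 of every group that has one, while Fkbp5 is highest in the 2 Malat1 ASO libraries (42.8 and 46.4 CPM).

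Of the 22 listed immediate-early genes, 3 were called lower in Malat1 ASO and none higher (0.222% of all genes were called). Their median log2 change was -0.46 against -0.0063 over all genes. The change was below 0 in 16 of them and above 0 in 6, up to 1.05. An unadjusted p under 0.05 was found for 18 of the 22 in edgeR, against 9.87% of all genes tested. The medians were -0.44 in OTV:Malat1 and -0.41 in nonTV:Malat1, where none was called by edgeR and 13 and 12 had an unadjusted p under 0.05, against 4.48% and 3.72% of all genes tested. This list split by replicate number. For OTV:Malat1 over ATV:BACE1 the median log2 ratios were -0.59, 0.14 and -0.67 among mice numbered 1, 4 and 5. For nonTV:Malat1 it was -0.71, 0.18 and -0.36, and for Malat1 ASO -0.73 and -0.27 in replicates 1 and 5. Summed over the list, ATV:BACE1 replicates 1, 4 and 5 had 682, 222 and 508 CPM, while the other groups had 466 to 514 CPM in replicate 1, 254 to 270 CPM in replicate 4 and 315 to 423 CPM in replicate 5. The fall relative to control was therefore absent in replicate 4, and whether it goes with dosing or with the 2 control mice was not tested. Replicates 5 and 4 were both male and differed in batch and age. Between replicates 5 and 4 of all groups, 16 of the 22 genes were called and all 16 were higher in replicate 5 (18.2% of all genes tested were called). The replicate terms together called 43% of genes, among them 20 of these 22. Fos differed by 1.57 and Arc by 1.45 on the log2 scale between replicates 5 and 4. The number of immediate-early genes called in Malat1 ASO was 4 when OTV:Malat1 replicate 1 was left out, 2 when OTV:Malat1 lost replicate 4 or 5 or nonTV:Malat1 lost replicate 1, and 1 when the control lost replicate 1. It was 0 when the control lost replicate 5, when nonTV:Malat1 lost replicate 4 or 5, or when either Malat1 ASO library was left out. Without ATV:BACE1 replicate 4, Junb also passed edgeR's test in OTV:Malat1 (log2 change -1.33, adjusted p = 0.00027) and in nonTV:Malat1 (-1.19, adjusted p = 0.00123). Egr1 then passed in OTV:Malat1 (-1.02, adjusted p = 0.0125) but not in nonTV:Malat1.

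Some of these genes were also called within strata, which hold nuclei of the same mice, so calls in several strata are not independent repeats. Homer1 rose in 6 of 7 strata in Malat1 ASO (log2 changes 0.74 to 1.06), with 0.196%, 0.0878%, 0.0804%, 0.138%, 0.0557%, 0.0502% and 0% of genes called in the order above. Junb fell in 4 of 7 strata in Malat1 ASO. The immediate-early gene Nr4a3 rose in the layer 2/3 stratum (log2 change 1.17, edgeR, adjusted p = 0.0466). Gm47283 rose in 5 of 7 (log2 changes 1.71 to 2.13) but was not called in the class as a whole (log2 change 2.00, edgeR, adjusted p = 0.210). In OTV:Malat1 against ATV:BACE1, Junb fell in 4 of 7 strata (log2 changes -1.39 to -1.04), Egr1 fell in 3 and Homer1 rose in 2 (0.58 and 0.66), though none of these passed in the class as a whole. Gm47423 (0.60) and Tiparp (1.02) rose in layer 2/3 and Arc fell (-1.20) in layer 6. In nonTV:Malat1 Gm47423 rose in 2 of 7 strata, layer 2/3 and layer 6 (0.67 and 0.62), Tiparp rose in the first and Arc fell in the second (-1.22), where 0.014% and 0.0146% of genes were called. Bcas1, known from oligodendrocytes, fell (log2 change -1.65) and the synaptic adhesion gene Il1rapl2 rose (1.58) in the thalamus and midbrain stratum under OTV:Malat1, which had 412 nuclei over all libraries. In limma's test of that stratum's change against the rest of the class, neither was called. Without the replicate block, an alternative added after seeing the data, edgeR called 0 genes for Malat1 ASO and for nonTV:Malat1 in each of the 7 strata, and for OTV:Malat1 none besides Malat1 and, in the thalamus and midbrain stratum, Il1rapl2.

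Activity genes carry short sequences that bind the factor CREB, and the letters of the core half-site, TGACG, were looked for on both strands in the 250 bases before each RefSeq gene start. They stood in 17.8% of 32851 such windows. Of the 22 immediate-early genes 18 had a window, and 13 of these 18 (72.2%) had the letters in at least 1 window, against 19.8% of 27025 genes. The 18 come from a list of activity genes. The 27025 were not matched to them for base content or number of windows. These shares therefore describe the list, and a link to the changes in RNA was not tested. The promoters of Homer1, which rose, and Junb, which fell, are shown from RefSeq (GRCm38.p6) because they carry the letters and lie on opposite sides of the change. Homer1 has 2 such windows, for different starts, and the one shown lies inside the annotated span of the gene. Capitals mark TGACG, which occurs 3 times in this Homer1 window (chr13:93303507-93303756, plus strand) and 1 time before Junb (chr8:84978749-84978998, minus strand). Windows with 3 or more made up 0.688% of all. A match is a description of letters and not of binding.
Homer1: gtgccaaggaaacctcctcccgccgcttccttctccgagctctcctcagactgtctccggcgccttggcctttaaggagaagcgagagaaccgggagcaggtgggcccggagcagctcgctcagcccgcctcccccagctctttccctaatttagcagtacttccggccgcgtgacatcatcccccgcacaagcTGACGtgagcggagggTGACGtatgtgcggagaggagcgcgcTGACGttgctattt
Junb: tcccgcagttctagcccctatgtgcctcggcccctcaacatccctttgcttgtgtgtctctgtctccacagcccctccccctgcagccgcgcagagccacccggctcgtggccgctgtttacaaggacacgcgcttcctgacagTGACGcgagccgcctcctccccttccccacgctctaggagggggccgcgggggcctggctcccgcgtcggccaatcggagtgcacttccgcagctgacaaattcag

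Beyond the immediate-early, late activity, corticosteroid and clock lists, no list gave calls in any contrast by edgeR, apart from Homer1 among 31 synaptic adhesion and scaffold genes. None of 13 tested genes beside Malat1 was called. Its neighbour Neat1, another nuclear RNA (chr19:5824708-5845478), was at 40.0, 42.6 and 60.4 CPM in ATV:BACE1 and at 49.5, 45.0 and 66.0 CPM in OTV:Malat1. The log2 change of Neat1 was 0.17 with a 95% interval of 0.0038 to 0.34, and it did not pass (edgeR, adjusted p = 1.00). None of 49 splicing factors was called in OTV:Malat1, where their median log2 change was 0.0055 against 0.0021 over all genes. Pair by pair the medians were 0.047, 0.031 and -0.032 for the mice numbered 1, 4 and 5. In Malat1 ASO 39 of the 49 were higher than in the control (median 0.068), and in nonTV:Malat1 34 were (median 0.036), with none called. Celf2 and Rbfox1 were the most abundant of the splicing factors. Among 18 RNase H and ASO-binding genes, Rnaseh1 changed by -0.020 (95% interval -0.26 to 0.22). Tfrc, the mouse transferrin receptor, changed by 0.023 (-0.20 to 0.25) among 14 tested iron genes. Bace1 changed by 0.068 (-0.11 to 0.24) among 16 genes of amyloid precursor processing, set against a control group that itself received ATV:BACE1. Of these 16, 0, 2 and 6 had an unadjusted p under 0.05 in OTV:Malat1, nonTV:Malat1 and Malat1 ASO (edgeR). Over all genes the shares were 4.48%, 3.72% and 9.87%. Log2 changes of the 16 in Malat1 ASO ran from -0.73 to 0.31, and none was called.

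No receptor or channel gene of the lists was called in OTV:Malat1 by edgeR. The median log2 change was -0.0025 over 33 glutamate and GABA receptor genes and -0.010 over 30 voltage-gated channel genes. These medians join pairs of mice that differed. For the receptor list they were 0.12 for the mice numbered 1 (9 of 33 genes lower), -0.075 for those numbered 4 (25 lower) and -0.051 for those numbered 5 (22 lower), and for the channel list 0.059, -0.10 and -0.0082. The median was -0.0040 over 24 endosomal sorting genes and 0.018 over 14 nuclear long non-coding RNAs, among them Meg3. Of 18 tested genes of nucleic acid sensing and interferon, none was called in Malat1 ASO, nonTV:Malat1 or OTV:Malat1 by edgeR. Of the 18, 2, 2 and 1 had an unadjusted p under 0.05, against 9.87%, 3.72% and 4.48% of all genes. The median was -0.064 over 19 stress and p53 response genes in OTV:Malat1, again with none called and 4 at an unadjusted p under 0.05 (4.48% of all genes). Pair by pair these medians were -0.16, 0.075 and -0.040, so the mice numbered 4 went the other way.

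Among markers of other cells, the summed levels of astrocyte, microglia, choroid plexus and inhibitory neuron lists overlapped the ATV:BACE1 range in each group, and those of oligodendrocytes did not in 2 of 3. The 5 oligodendrocyte markers summed to 430.5 to 447.3 CPM in the ATV:BACE1 libraries, 439.9 to 550.6 CPM in OTV:Malat1, 471.5 to 483.1 CPM in nonTV:Malat1 and 508.7 to 529 CPM in Malat1 ASO. The 3 choroid plexus markers summed to 210 to 476.4 CPM in ATV:BACE1 and 225.7 to 258.2 CPM in OTV:Malat1. In nonTV:Malat1 this sum was 314.2 to 413.7 CPM, above all OTV:Malat1 libraries, and in that contrast Ttr was called lower in the layer 5 and hippocampal CA strata (log2 changes -0.76 and -0.89, with 0.0161% and 0.0669% of genes called). The near-projecting and retrosplenial pair of markers summed to 209.8 to 224 CPM in OTV:Malat1, below the 8 other libraries (232 to 293.4 CPM). Its gene Tshz2 was not called in the class (edgeR, log2 change -0.22 against ATV:BACE1, adjusted p = 1.00). The layer 4 markers in replicate 1 summed to 309.6 CPM in ATV:BACE1, 231.2 in nonTV:Malat1, 245.8 in OTV:Malat1 and 190.8 in Malat1 ASO. In replicate 5 the control had 282.5 CPM, against 272.4, 334.7 and 284.8 CPM in the same order. In replicate 4 it had 288.8 CPM, against 304.9 in nonTV:Malat1 and 309.1 in OTV:Malat1. The part of these shifts in the Malat1 change and in the genes called in Malat1 ASO was not tested. The 9 inhibitory neuron markers summed to 380.4 to 492.3 CPM in ATV:BACE1 and 404.1 to 497.2 CPM in OTV:Malat1. The nonTV:Malat1 and Malat1 ASO libraries thus lay above the 3 control libraries in oligodendrocyte RNA. OTV:Malat1 lay above its same-numbered control in replicates 1 and 5 (550.6 against 430.5 and 538.7 against 447.3 CPM). These sums are scaled to all UMIs, Malat1 included. Malat1 took 4.03% of UMIs in OTV:Malat1 replicate 4 against 7.65% in its control, which raises the CPM of other genes in the former. The direction of that pair (439.9 against 437.4 CPM) therefore cannot be read from these sums. Mbp, a myelin gene of oligodendrocytes, was called higher in the layer 2/3 stratum of Malat1 ASO (log2 change 0.48, edgeR, adjusted p = 0.0467). The part of this RNA in the Malat1 change and in the genes called in Malat1 ASO was not tested.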

How the data were processed

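Single-nucleus libraries were processed with Cell Ranger 5.0.0 and Seurat 4 on mm10, per the submitters' processing notes. The deposited matrix holds UMI counts, per the file headers whole numbers without normalization. Its sums matched the deposited total in 110304 of 110304 nuclei. Class names, clusters, doublet calls, the mitochondrial percent and the prediction score, a fraction from 0 to 1, are the authors' deposited values. How nuclei were filtered before deposition is not given in the sources used here.

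Counts of neurons of cluster 0 were summed by library and tested with edgeR 4.0.16 (quasi-likelihood, TMM, filterByExpr, all 4 groups and the replicate number in 1 fit, Benjamini-Hochberg adjustment over 18492 genes, threshold 0.05). TMM centres the bulk of genes, so changes are relative to it. Differences between clusters or strata used limma 3.58.1 (prior count 2), and DESeq2 1.42.0 was an alternative, all in R 4.3.3. Single values had exact permutation tests over libraries. Nuclei were thinned to 1000 UMIs for levels within nuclei. Intervals are at 95%. Scripts were tested on simulated data. Positions are from GENCODE release M21.

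The batch number coincides with the replicate number, and libraries of the same number deviated together (r 0.372 to 0.675 over 15 pairs, against -0.532 to 0.225 over 30 other pairs), so the replicate number was kept as a block. Named genes were Malat1, up to 10 called in each direction in each contrast or otherwise the 5 of smallest p, and list members called or of highest CPM (top 2). Members and lists were chosen with earlier results of these data known. The promoter search, Bcas1, Il1rapl2 and Gm47283, Rnaseh1, Tfrc, Bace1, Fos and Arc were picked outside that rule after their values were seen. Replicate 4 of Malat1 ASO was not analysed here. One marker gene is not reported here.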

Additional observations from a re-analysis of the deposited data

How the results depend on the processing

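Without the replicate block, the log2 change of Malat1 kept its size in OTV:Malat1 against ATV:BACE1 (-0.81), nonTV:Malat1 (-0.85) and Malat1 ASO (-0.86), but the adjusted p was 1.00 in each, and these 3 contrasts and Malat1 ASO against ATV:BACE1 had 0 genes called by edgeR. In the strata without the block, Malat1 did not pass in layer 2/3 (-0.73, adjusted p = 0.0642) and layer 6 (-0.72, adjusted p = 0.449). With replicates 1 and 5 of every group only, an alternative added after seeing the data, Malat1 changed by -0.71, -0.75 and -0.77 in these 3 contrasts (adjusted p = 0.0574, 0.140 and 0.102). Then 0 genes were called against nonTV:Malat1 and against Malat1 ASO, 1 in nonTV:Malat1 against ATV:BACE1 and 17 in Malat1 ASO against ATV:BACE1. Leaving out 1 library at a time, the Malat1 change ranged from -0.92 to -0.71 against ATV:BACE1 (0 to 6 genes called), -0.96 to -0.75 against nonTV:Malat1 (0 to 2 genes) and -0.97 to -0.77 against Malat1 ASO (0 to 1 genes). It did not pass against nonTV:Malat1 without nonTV:Malat1 replicate 1 (-0.89, adjusted p = 0.0654) or OTV:Malat1 replicate 4 (-0.75). It did not pass against Malat1 ASO without any of 5 libraries (nonTV:Malat1 replicate 1, OTV:Malat1 replicates 4 and 5, Malat1 ASO replicates 1 and 5; adjusted p up to 0.199). The Malat1 change in nonTV:Malat1 against ATV:BACE1, close to 0 throughout, ranged from -0.019 to 0.095 (0 to 1 genes called) and was below 0 if ATV:BACE1 replicate 1 (-0.019) or nonTV:Malat1 replicate 4 (-0.013) was left out. In Malat1 ASO against ATV:BACE1 it ranged from -0.045 to 0.082 (1 to 69 genes called), with -0.045 without ATV:BACE1 replicate 1, and was -0.0074 on library totals without TMM. DESeq2 called 5, 5, 72 and 2 genes in OTV:Malat1, nonTV:Malat1 and Malat1 ASO against ATV:BACE1 and in OTV:Malat1 against nonTV:Malat1. Without the filter on low counts edgeR called 7, 7, 73 and 4. In Malat1 ASO against ATV:BACE1, 20 genes were called without TMM and 24 without called doublets (added after seeing the data), and 1 gene was called in nonTV:Malat1 without doublets. Of the 41 genes, 37 were among the 72 of DESeq2. For named genes other than Malat1, 1282 alternative values kept their side of the threshold, 381 lost it, 31 gained it and 0 changed sign. The cause of these shifts was not tested. Without any 1 library the difference between clusters 0 and 1 (-0.15 to -0.065), the low share (33.8 to 47.5 percentage points) and the share of library nuclei (-5.48 to -0.24 points) kept their direction. The permutation tests of both shares cannot pass the threshold at this size, so their calls say nothing on stability. Counts near 0 set the precision of rare genes.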

Other observations

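Mitochondrial transcripts, which in nuclear preparations come from outside the nucleus, were among the genes of smallest p in nonTV:Malat1. The oxidase subunit gene mt-Co3 was at 39.6, 18.5 and 22.9 CPM in ATV:BACE1 replicates 1, 4 and 5, at 58.2, 31.2 and 32.6 CPM in nonTV:Malat1, at 39.0, 20.8 and 20.3 CPM in OTV:Malat1 and at 33.1 and 23.2 CPM in Malat1 ASO. The library of nonTV:Malat1 was the highest within each replicate number. The log2 change of mt-Co3 was 0.60 against ATV:BACE1 (edgeR, adjusted p = 0.120), which did not pass.

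Gh, the growth hormone gene of the pituitary, had 53 UMIs in nonTV:Malat1 replicate 5, 12 in Malat1 ASO replicate 5, 7 in OTV:Malat1 replicate 5 and 0 in the other 8 libraries. The counts were thus found only in replicate 5 of these 11 libraries, and in 3 of its 4.

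In OTV:Malat1 against ATV:BACE1 the genes of smallest p after Malat1 were Tob1 (log2 change -0.82), Gm47423 (0.48), Junb (-1.09), Homer1 (0.54), Jun (-0.56), Gm15638 (1.28), Gm43126 (0.86), Tiparp (0.73), Dact2 (-0.50) and Egr1 (-0.81). Their adjusted p ran from 0.148 to 0.473 in edgeR, so none passed. The control mice are the same as in the comparison with Malat1 ASO.

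In OTV:Malat1 against Malat1 ASO, Fkbp5 (log2 change -0.55), Tshz2 (-0.42), Tbc1d1 (-0.33), Per1 (-0.44) and Aacs (-0.44) had the smallest p among lower genes, and none passed edgeR's adjusted threshold.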
